A study of Mus musculus with 14 samples.

Results

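The miR-15/16 family was followed across crypt cell populations of the mouse small intestine, in small RNA libraries from C57BL/6J mice carrying a Sox9-eGFP reporter, whose green fluorescence follows Sox9 activity. Its members were taken as every table entry at the annotated start of the 5p arm of mir-15a, mir-15b, mir-16-1, mir-16-2, mir-195 or mir-497. This gave 6 of the 534 annotated-start entries, among 2030 entries in all. The groups were Sox9eGFP High, Negative, Sublow and Low cells, with 3 libraries each, and Non-sorted cells, with 2 libraries; all share the strain, the tissue and the reporter, and no other treatment is labelled. From earlier work with this reporter, the High gate is thought to be rich in enteroendocrine cells, the Negative gate in differentiated cells, the Sublow gate in transit-amplifying cells and the Low gate in crypt stem cells. Whether replicate libraries were drawn from different animals is not labelled; a p-value here reflects library-to-library spread only, which may be technical.

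A microRNA pairs with target mRNAs mainly through its seed, the stretch from base 2 to base 8, and members of a family share it. The miR-15/16 family is known for repressing cell cycle genes such as cyclins D1, D3 and E1, Cdk6 and Wee1, and for repressing the survival factor Bcl2. The hairpins lie in pairs that are transcribed together, and the miR-15a and miR-16-1 pair is lost in many chronic lymphocytic leukaemias.

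The mature sequences are shown because the shared seed defines the family and because the copies of miR-16 cannot be told apart by sequence. Each was taken from RefSeq (GRCm38.p6) and is given 5′ to 3′ with the seed in capitals. All 6 members carry 1 and the same seed.
miR-15a-5p: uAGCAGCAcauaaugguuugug
miR-15b-5p: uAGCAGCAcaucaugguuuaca
miR-16-1-5p: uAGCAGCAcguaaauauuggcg
miR-16-2-5p: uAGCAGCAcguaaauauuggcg
miR-195-5p: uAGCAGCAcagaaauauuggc
miR-497-5p: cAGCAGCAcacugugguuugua

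Outside the seed the members diverge. miR-15a-5p differed from miR-15b-5p at 4 of 22 positions and from miR-16-5p at 6 of 22. miR-195-5p differed from miR-16-5p at 2 of 21 positions, while miR-497-5p differed from miR-16-5p at 11 of 22. These positions lie outside the seed.

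The members sit at 3 loci (GRCm38.p6). miR-15a-5p (chr14:61632075-61632096, minus strand) and miR-16-1-5p (chr14:61631936-61631957, minus strand) lie in an intron of Dleu2, on its strand, with 117 bases between the mature arms. miR-15b-5p (chr3:69009775-69009796, plus strand) and miR-16-2-5p (chr3:69009918-69009939, plus strand) lie in an intron of Smc4, which encodes a condensin subunit, with 121 bases between them. miR-497-5p (chr11:70234730-70234751, plus strand) and miR-195-5p (chr11:70235062-70235082, plus strand) are 310 bases apart. The last pair is known from heart and skeletal muscle, where it restrains the cell cycle.

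Values are RPM, reads scaled so that the miRNA reads of each library add up to 1e+06. Estimated depth was 1.89 to 16.4 M miRNA reads per library (median 4.99 M; M, 1e+06). The estimate assumed that the smallest value listed in a library was near 10 reads, and it was set at 9.99 to 10.9 reads. Depth and all read numbers below rest on this assumption, under which a listed 0 means fewer than about 10 reads. miR-215-5p, an abundant miRNA of absorptive cells, reached 335102 to 345077 RPM in Negative, 233630 to 252329 RPM in Sublow and 297659 to 389349 RPM in Non-sorted libraries, against 36188 to 47543 RPM in High and 43681 to 52462 RPM in Low. With a fixed total, every other miRNA is listed lower where miR-215-5p takes up more, so each difference below was also computed after median-ratio rescaling, which centres the libraries on a common median ratio. As deposited, the median difference over the 588 tested entries was −0.90 in Negative vs Low, 0.57 in High vs Negative, −0.43 in Sublow vs Low, −0.37 in Negative vs Sublow and 0.39 for the sorted mean vs Non-sorted on the log2 scale. It was −0.11 in High vs Low and 0.07 in High vs Sublow. Rescaling moved these medians by 0.82, −0.53, 0.38, 0.37, −0.38, 0.30 and −0.04 in the same order. The shift was 0.30 between High and Low, which had similar miR-215-5p, and −0.04 between High and Sublow, which did not. The part of miR-215-5p in these shifts was not tested.

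The endocrine miRNAs miR-375-3p and miR-7b-5p summed to between 1.25e+05 and 1.45e+05 RPM in High, 697 and 1208 RPM in Negative, 1.48e+04 and 1.94e+04 RPM in Sublow, and 5.66e+04 and 8.03e+04 RPM in Low libraries. The Low gate thus also carried much endocrine miRNA, and no marker of stem or transit-amplifying cells was checked. Of 4 red blood cell entries, which are often seen with miR-16, miR-451 and miR-144-3p were listed at 0 in all 14 libraries and miR-144-5p was above 0 in 1. The fourth, miR-486-5p, which other tissues also express, was listed in every library, at 27.0 to 38.3 RPM in High, 9.88 to 33.9 RPM in Negative, 9.72 to 27.7 RPM in Sublow, 11.9 to 32.4 RPM in Low and 7.39 to 8.76 RPM in Non-sorted.

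Differences below come from limma on log2(RPM + 1), a scale that understates changes of low entries. The p-values were adjusted over the 588 entries by Benjamini-Hochberg, and 0.05 was the threshold. For the sorted mean, the 4 sorted populations were weighted equally, and their shares among Non-sorted cells are not labelled. miR-195-5p reached 10 RPM in only 2 libraries and was not tested. All 5 tested members differed among the 4 sorted populations, as did 72.3% of all tested entries. Of these members, miR-16-1-5p and miR-16-2-5p hold nearly the same reads and are not separate results. The adjusted p was 7.32e-04 for miR-16-1-5p, 7.74e-04 for miR-16-2-5p, 0.00136 for miR-15b-5p, 0.00932 for miR-497-5p and 0.0201 for miR-15a-5p. The miR-15a-5p call was lost after median-ratio rescaling (adjusted p = 0.848), after quantile normalization (0.128), with a lane term (0.2), with no filter (0.0766) and without Negative replicate 2 (0.0692) or 3 (0.0578). The miR-15b-5p call was lost with the lane term (adjusted p = 0.0538). Under either rescaling 4 members passed. The members did not follow one pattern: miR-16 and miR-15a were listed highest in Low, miR-15b in Sublow, and miR-497 and miR-195 in High.

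**Figure D1:**
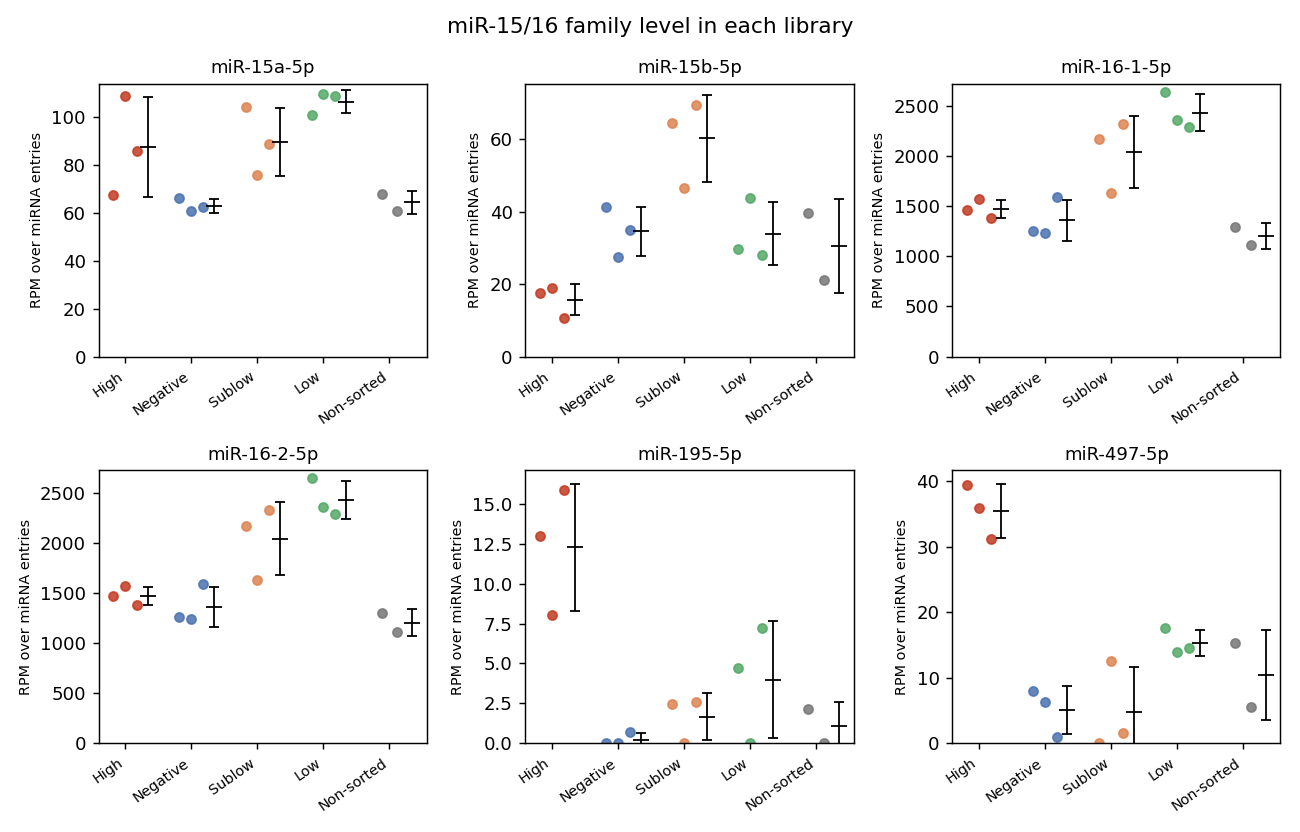
Level of each family member (y axis, RPM over miRNA entries, from 0) in every library of the 5 groups (x axis); each point is a library and the bar beside it is the group mean ± SD. miR-16-1-5p and miR-15a-5p had their highest mean in Low, miR-15b-5p in Sublow (60.2 RPM), and miR-497-5p (35.5 RPM) and miR-195-5p (12.3 RPM) in High.

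miR-16 was the most abundant member and made up 90.2 to 94.5% of the family's RPM when its copies were counted once. miR-16-1-5p (mmu-mir-16-1-5p in the table) stood at 1466, 1570 and 1385 RPM in High, 1250, 1233 and 1593 RPM in Negative, 2167, 1632 and 2325 RPM in Sublow, 2644, 2365 and 2289 RPM in Low, and 1295 and 1108 RPM in Non-sorted. The order of the means was Low, Sublow, High, Negative and Non-sorted from the highest down. Low overlapped Sublow, High overlapped Negative, and Negative overlapped Non-sorted, whereas every High library was below every Sublow library. By its mean it ranked 49 among the 534 annotated-start entries, next to its copy at 48.

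In High cells miR-16-1-5p was lower than in Low cells, at 1473 ± 92.6 RPM against 2433 ± 187 RPM (SD, n = 3 each), a difference of −0.72 (SE 0.15, adjusted p = 0.00331, limma). It was also lower than in Sublow cells, at 2041 ± 363 RPM, by −0.46 (adjusted p = 0.0209). After rescaling the difference from Low was −0.40 (adjusted p = 0.0657), while that from Sublow was −0.53 (adjusted p = 0.00979). The call against Sublow was lost without High replicate 1 (adjusted p = 0.0508), High replicate 3 (0.0639), Sublow replicate 1 (0.0742) or Sublow replicate 3 (0.0863), with a lane term (0.148) and with no filter (0.0542).

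In Negative cells miR-16-1-5p averaged 1359 ± 203 RPM (SD, n = 3). As deposited it was lower than in Low by −0.85 (SE 0.15, adjusted p = 2.92e-04) and lower than in Sublow by −0.58 (adjusted p = 0.00796). After rescaling neither call remained, with 0.03 against Low (adjusted p = 0.893) and −0.10 against Sublow (adjusted p = 0.700). Quantile normalization kept both calls, at −0.62 (adjusted p = 0.00440) and −0.74 (adjusted p = 0.00348). The all-entry median in Negative vs Low, −0.90, was close to the difference of miR-16-1-5p itself.

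miR-16-1-5p did not pass the test in High vs Negative as deposited (0.13, adjusted p = 0.481), whereas rescaling gave −0.42 (adjusted p = 0.0236), the opposite sign. Between Sublow and Low the difference was −0.27, with a 95% interval of −0.59 to 0.05 and an adjusted p of 0.180 (limma). Against Non-sorted cells, at 1202 ± 132 RPM (n = 2), the mean of the sorted populations was higher by 0.56 (adjusted p = 0.00933), but not after rescaling (0.17, adjusted p = 0.416) and not without Non-sorted replicate 2 (adjusted p = 0.142).

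Lanes were taken from codes in the library names. Under the only code that High and Low share, which the names also mark as a combination, 2 High and 2 Low libraries differed by −0.62 in miR-16-1-5p. A second lane gave −0.73 for 1 Negative against 1 Low library. Negative against Sublow was −0.49 in one lane and −0.39 in another. In the latter lane, 2 Negative libraries differed from 2 Non-sorted ones by only 0.05. No lane held High together with Negative or Sublow, so lane and population cannot be told apart there.

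miR-16-2-5p (mmu-mir-16-2-5p) has the same mature sequence, and its value differed from that of miR-16-1-5p by 0.00546 to 0.688% in each library. Annotated-start reads therefore cannot be assigned to the Dleu2 or the Smc4 locus, and the counts of called members below hold miR-16 as a pair. The hairpins are shown because other forms can tell the copies apart. They are printed from RefSeq with the 5p arm in capitals, and they differ in the base just before the capitals and along the 3p arm.
mir-16-1 hairpin: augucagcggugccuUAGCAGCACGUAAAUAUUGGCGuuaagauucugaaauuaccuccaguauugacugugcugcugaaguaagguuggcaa
mir-16-2 hairpin: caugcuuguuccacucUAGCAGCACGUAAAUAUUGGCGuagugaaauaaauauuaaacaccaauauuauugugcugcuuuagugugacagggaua

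Entries with a suffix were read as sequences whose start is shifted from the annotated base, since the header does not define the suffix. The form with suffix −1, which would begin at the base before the capitals, was listed for mir-16-2 in all 14 libraries, at 7.53 to 29.9 RPM (median 16.02 RPM). For mir-16-1 it was above 0 in 5 libraries, at no more than 5.67 RPM, and mir-16-2 was the higher of the pair in 14 of 14. The form with suffix +1, which lies wholly within the shared sequence, had 59.8 to 126 RPM and differed between the copies by at most 1.34%.

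The 3p arms, normally the less abundant strand, are printed for the same reason.
miR-16-1-3p: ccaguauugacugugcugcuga
miR-16-2-3p: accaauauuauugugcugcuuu
miR-16-2-3p was listed in all 14 libraries, at 5.81 to 24.1 RPM (median 9.15 RPM). miR-16-1-3p was above 0 in 2 libraries, at no more than 3.66 RPM. At the other arms of these loci, miR-15b-3p was above 0 in 8 libraries (up to 9.17 RPM) and miR-15a-3p in 3 (up to 3.72 RPM). The −1 form and the 3p arm thus both listed more RPM for the chromosome 3 locus than for the chromosome 14 locus. The form with suffix −4, which would also separate the copies, had nearly equal means. These were 1.28 RPM for mir-16-1, above 0 in 3 libraries, and 1.30 RPM for mir-16-2, above 0 in 4. All of these are minor products, the −1 form being 0.669 to 1.501% of the annotated form of mir-16-2.

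**Figure D2:**
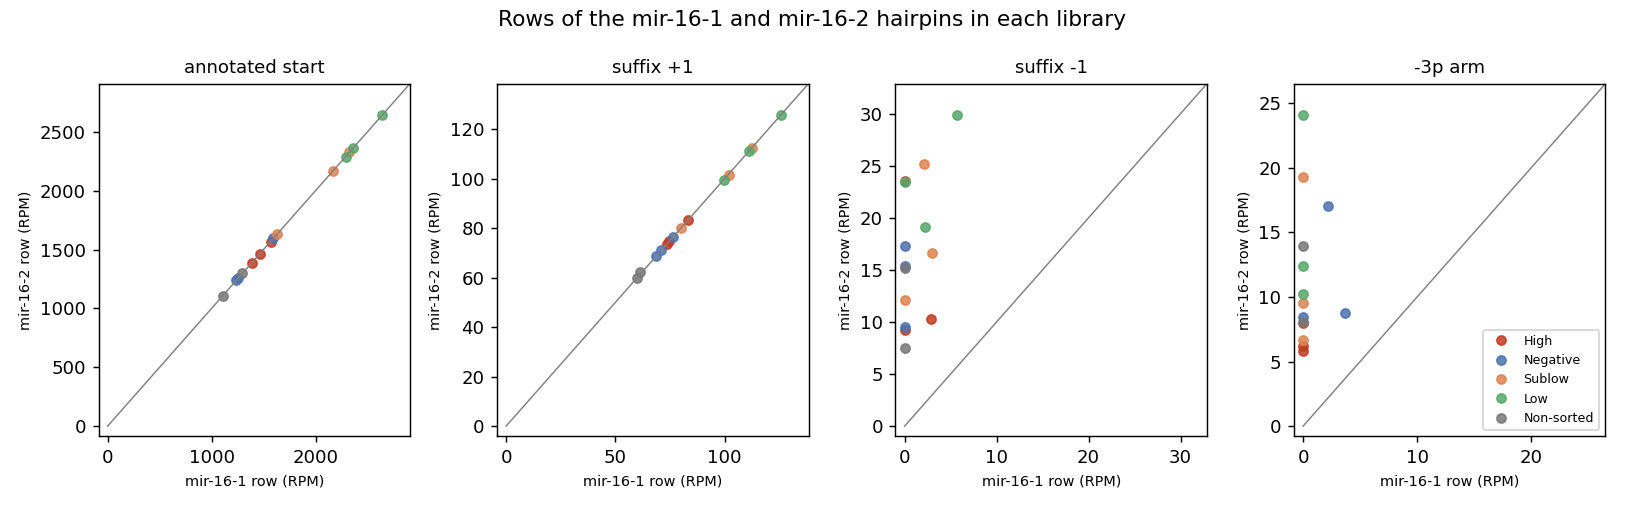
RPM of the mir-16-2 entry (y axis) against the mir-16-1 entry (x axis) for the annotated start, the forms with suffix +1 and −1, and the 3p arm; each point is a library, coloured by group, and the line marks equal values. Annotated-start and +1 points lie on the line, and all 14 points of the −1 form and of the 3p arm lie above it.

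The copy-specific entries that were tested did not pass among populations at this depth. The −1 form of mir-16-2 had an adjusted p of 0.284 among the sorted populations and miR-16-2-3p had 0.235 (limma F test). Their differences in High vs Low were −0.81 (SE 0.42, adjusted p = 0.180) and −1.03 (SE 0.45, adjusted p = 0.115). The more abundant +1 form of mir-16-1 was lower in High than in Low by −0.53 (adjusted p = 0.0279) and lower in Negative than in Low by −0.63 (adjusted p = 0.00424).

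Shifted starts made up 4.41 to 5.94% of the miR-16-1-5p reads and 4.99 to 7.16% of the miR-16-2-5p reads. For miR-15a-5p they made up 0 to 7.65% and for miR-15b-5p 0 to 18.7%, both from few reads. No shifted form of miR-497-5p was above 0.

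miR-15a-5p (mmu-mir-15a-5p), which shares a primary transcript with miR-16-1, ranked 126. It stood at 67.1, 109 and 85.6 RPM in High, 66.1, 60.4 and 62.2 RPM in Negative, 104, 75.5 and 88.5 RPM in Sublow, 101, 110 and 109 RPM in Low, and 67.6 and 60.8 RPM in Non-sorted. The means ran from Low through Sublow, High and Non-sorted to Negative, and each neighbouring pair overlapped. The Negative libraries were all below the Low, the Sublow and the High libraries.

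Only the difference of Negative from Low passed the test, with 62.9 ± 2.91 RPM in Negative against 106 ± 4.91 RPM in Low (SD, n = 3 each), a log2 difference of −0.75 (adjusted p = 0.00373). After rescaling it was 0.12 (adjusted p = 0.613), and the call was also lost after quantile normalization (adjusted p = 0.0567) and with a lane term (adjusted p = 0.17). Within the lane that held both, 1 Negative and 1 Low library differed by −0.68. High vs Low was −0.31, with a 95% interval of −0.71 to 0.10 (adjusted p = 0.243), and here the High libraries spread over 87.1 ± 20.8 RPM.

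miR-15b-5p (mmu-mir-15b-5p), from the Smc4 locus, ranked 161 and had another order. It stood at 17.4, 18.8 and 10.8 RPM in High, 41.2, 27.6 and 35.03 RPM in Negative, 64.6, 46.6 and 69.5 RPM in Sublow, 29.8, 43.9 and 28.0 RPM in Low, and 39.6 and 21.2 RPM in Non-sorted. Every High library was below every library of the other groups, and every Sublow library was above them. The Negative, Low and Non-sorted libraries overlapped. These values rest on an estimated 20.3 reads in High replicate 3 and up to 1058 reads in Sublow replicate 1.

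In High cells miR-15b-5p averaged 15.7 ± 4.31 RPM, against 60.2 ± 12.05 RPM in Sublow cells (SD, n = 3 each), 3.72-fold less on the log2(RPM + 1) scale (log2 difference −1.89, SE 0.31, adjusted p = 3.45e-04). It was also lower in High than in Negative cells, which had 34.6 ± 6.82 RPM, by −1.11 (adjusted p = 0.00795). Both calls remained after rescaling, at −1.96 (adjusted p = 2.27e-04) and −1.64 (adjusted p = 6.02e-04). With a lane term the difference from Negative was −1.30 and was no longer called (adjusted p = 0.124). No lane held High and Negative together, so that fit links them only through Low libraries. Of the members, it was the one with the lowest level in High relative to Sublow.

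Against Low cells, at 33.85 ± 8.71 RPM, High was lower by −1.07 (SE 0.31, adjusted p = 0.0235). This call was lost after rescaling (−0.75, adjusted p = 0.0976), without High replicate 3 (adjusted p = 0.0862), without Low replicate 2 (adjusted p = 0.0888), with no filter (adjusted p = 0.0638) and with a lane term (−0.915, adjusted p = 0.111). The 2 High and 2 Low libraries under the shared lane code differed by −0.915, with no test.

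Sublow against Low did not pass as deposited for miR-15b-5p (0.82, 95% interval 0.14 to 1.502 before adjustment, adjusted p = 0.0579), although the libraries did not overlap. After rescaling it passed, at 1.20 (adjusted p = 0.0117), and so it did without any one of 5 libraries, with an adjusted p of 0.0465 without High replicate 3, 0.0472 without Sublow replicate 2, 0.0417 without Low replicate 2, 0.0425 without Non-sorted replicate 1 and 0.042 without Non-sorted replicate 2. Negative against Low was 0.04 (adjusted p = 0.913) as deposited and 0.89 (adjusted p = 0.0316) after rescaling. Negative against Sublow was −0.78 (adjusted p = 0.0714).

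**Figure D3:**
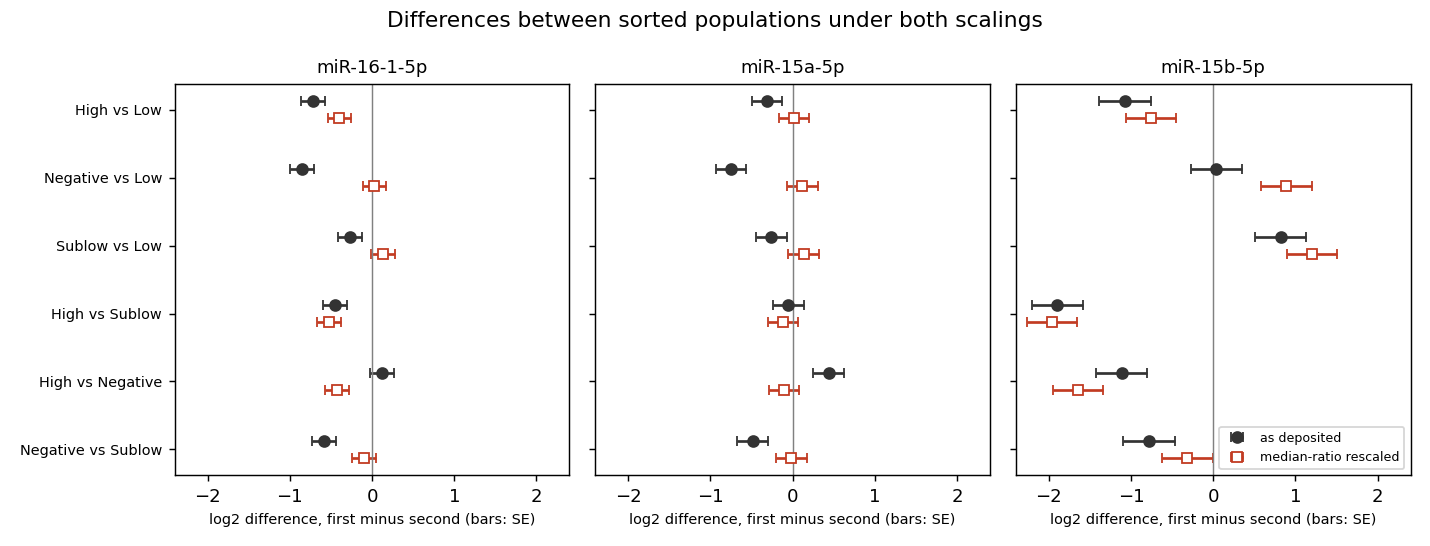
Log2 difference between sorted populations (x axis, first minus second, bars SE) for miR-16-1-5p, miR-15a-5p and miR-15b-5p in the 6 pairs (y axis), as deposited (filled circles) and after median-ratio rescaling (open squares). miR-15b-5p stayed below 0 in High vs Sublow (−1.89 and −1.96), whereas miR-16-1-5p in Negative vs Low was −0.85 as deposited and 0.03 after rescaling.

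Plain RPM ratios between members of one library do not depend on how the library was scaled. Those used here were taken on RPM + 1, which leaves some dependence for low members. The ratio of miR-15b-5p to miR-15a-5p on RPM + 1 averaged 0.196 ± 0.0688 in High, 0.555 ± 0.0828 in Negative, 0.679 ± 0.0945 in Sublow and 0.324 ± 0.0732 in Low (SD, n = 3 each), with 0.476 ± 0.164 in Non-sorted (n = 2). All 6 High and Low libraries had a lower ratio than all 6 Negative and Sublow libraries. High overlapped Low, and Negative overlapped Sublow. Of the High and Low libraries, only Low replicate 1 shared a lane code with Negative or Sublow libraries. Lane and population thus largely coincide in this split, and the ratio tests had no lane term. The ratio differed among the sorted populations (exact permutation test over 15400 assignments, p = 0.00039, adjusted p = 0.00156 over 4 ratios), and stayed called when any 1 library was left out (adjusted p up to 0.00857).

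At the Smc4 locus, the ratio of miR-16-2-5p to miR-15b-5p averaged 92.1 ± 22.1 in High, 39.2 ± 8.07 in Negative, 33.5 ± 0.648 in Sublow and 72.6 ± 17.6 in Low (SD, n = 3 each). It differed among the sorted populations (exact permutation p = 0.0026, adjusted p = 0.00519). Its numerator holds reads of both miR-16 copies. The High and Low libraries, at 52.7 or more, were again apart from the Negative and Sublow libraries, at 44.3 or less. Lane largely coincides with this split too.

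At the Dleu2 locus, the ratio of miR-16-1-5p to miR-15a-5p was 17.3 ± 3.77 in High, 21.3 ± 3.45 in Negative, 22.7 ± 2.89 in Sublow and 22.8 ± 2.83 in Low. The 4 populations overlapped and the ratio did not pass the test (exact permutation p = 0.178, adjusted p = 0.178). Without High replicate 1 the adjusted p was 0.0474. Here too the numerator holds reads of both miR-16 copies. The ratio of miR-16-2-5p to miR-16-1-5p had an adjusted p of 0.0842, and 0.0355 without Negative replicate 3, where both entries hold nearly the same reads.

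**Figure D4:**
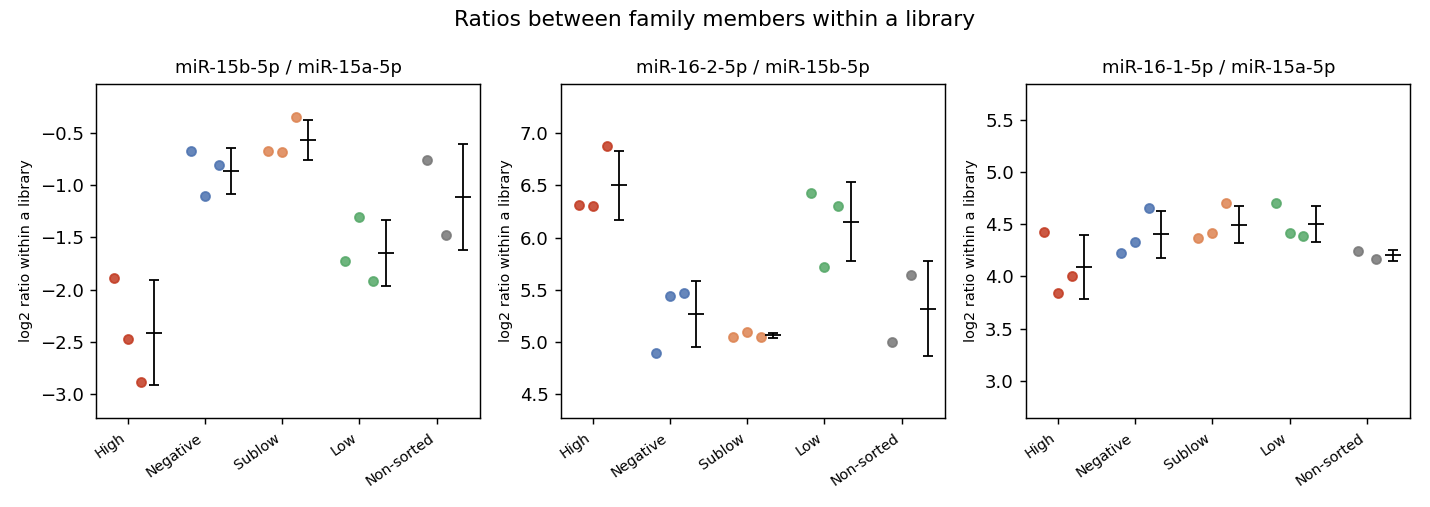
Log2 ratio of 2 members within a library (y axis, on RPM + 1) for the 5 groups (x axis); points are libraries, bars are mean ± SD, and each panel spans the same number of log2 units. The miR-15b-5p to miR-15a-5p ratio is lowest in High (mean −2.41) and Low (−1.65), and the miR-16-1-5p to miR-15a-5p ratio lies between 3.84 and 4.70 in all sorted libraries.

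miR-497-5p (mmu-mir-497-5p) and miR-195-5p (mmu-mir-195-5p), the chromosome 11 pair, were listed highest in High. miR-497-5p stood at 39.3, 35.9 and 31.2 RPM in High, 8.02, 6.31 and 0.94 RPM in Negative, 0, 12.6 and 1.59 RPM in Sublow, 17.5, 13.9 and 14.6 RPM in Low, and 15.2 and 5.58 RPM in Non-sorted. Every High library was above every other library. The other groups overlapped in part: Low stood above Negative and Sublow without overlap, and Non-sorted overlapped Low and Negative.

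With 35.5 ± 4.09 RPM, miR-497-5p was higher in High than in Sublow, at 4.73 ± 6.86 RPM, by 3.47 (SE 0.83, adjusted p = 0.00481), and than in Negative, at 5.09 ± 3.69 RPM, by 2.85 (adjusted p = 0.0103). After rescaling these were 3.38 (adjusted p = 0.00558) and 2.39 (adjusted p = 0.0272). With a pseudocount of 0.1 the call against Negative was lost (adjusted p = 0.0621). High against Low, at 15.3 ± 1.94 RPM, was 1.16 with a 95% interval of −0.66 to 2.99 (adjusted p = 0.336), and 0.84 with a pseudocount of 10 (adjusted p = 0.0492). The shared spread of this entry includes the Sublow libraries, which reach from 0 to 12.6 RPM.

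Sublow against Low was −2.31 for miR-497-5p (adjusted p = 0.0502), and it passed without Negative replicate 3 (adjusted p = 0.0358) or Sublow replicate 2 (adjusted p = 0.00344), with a lane term (0.0101), with a pseudocount of 10 (0.0385) and with all forms summed (0.048). Within one lane 2 Sublow libraries differed from 1 Low library by −3.525, and 1 Negative from 1 Low library by −3.255. Negative against Sublow was 0.27 in that lane and −0.74 in another, so its sign was not the same. In the lane with 2 High and 2 Low libraries the difference was 1.34.

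miR-195-5p, which differs from miR-16-5p at 2 positions, stood at 13.0, 8.01 and 15.9 RPM in High, 0, 0 and 0.69 RPM in Negative, 2.44, 0 and 2.58 RPM in Sublow, 4.72, 0 and 7.21 RPM in Low, and 2.13 and 0 RPM in Non-sorted. Every High library was above every other library. Its level rests on 10.4 to 174 estimated reads in the 9 libraries that list it, and the 3p arm was above 0 in 4 libraries (up to 10.6 RPM).

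Of the markers of other cell types, the endothelial pair miR-126-3p and miR-126-5p summed to between 10.2 and 17.1 RPM in High, 0.81 and 5.09 RPM in Negative, 0.98 and 5.96 RPM in Sublow, and 0 and 12.6 RPM in Low. The 4 mesenchymal and smooth muscle entries, 3 of them above 0, summed to 6.87 to 22.99 RPM in High against 17.5 to 66.0 RPM in Low. The endothelial sum, like miR-497 and miR-195, was above Negative and Sublow in High, but it overlapped Low, with medians of 12.69 and 12.49 RPM. In Low replicate 1, which had the most miR-497-5p outside High, the sum was 0. Its part in the result was not tested. In such bulk samples fewer cells of a type and less RNA per cell cannot be told apart.

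1 further entry of the table carries the same seed. miR-322-5p, the mouse form of miR-424, comes from an X-linked cluster with miR-503 and is known to act on the same cell cycle genes. It stood at 14.97, 16.4 and 11.6 RPM in High, and it was listed at 0 in all Negative and Sublow libraries. In Low it had 0, 0 and 2.19 RPM, and in Non-sorted 3.92 and 0 RPM. It passed the low-value filter only through High, so no test is given. Its cluster partner miR-503-5p was listed in High replicate 1 alone, at 1.64 RPM.

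Summed with miR-16 counted once, the family made up 0.162 ± 0.0108% of the miRNA reads in High, 0.146 ± 0.0200% in Negative, 0.220 ± 0.0380% in Sublow, 0.259 ± 0.0182% in Low (SD, n = 3 each) and 0.131 ± 0.0158% in Non-sorted (n = 2). The sum follows miR-16. The seed-sharing members highest in High were thus the scarce ones.

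In High vs Low, 3 of the 5 tested members were lower and 0 higher, against 20.1% lower, 7.99% higher and 28.1% called in either direction among all tested entries. Higher entries made up 28.5% of all calls as deposited and 53.6% after rescaling, when 0 members passed. In High vs Sublow, 4 passed (50.5% of all entries): miR-497-5p was higher, and miR-15b-5p and the miR-16 pair were lower, and the same split was found after rescaling. In High vs Negative, miR-497-5p was higher and miR-15b-5p lower, 2 calls against 66.3% of all entries, with 66.2% of all calls higher as deposited and 52.9% after rescaling. After rescaling the miR-16 pair passed too, as lower.

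In Negative vs Low, 3 members were lower, against 49.5% lower and 66.0% called of all entries. Of all calls 25.0% were higher, and 50.9% after rescaling, when miR-15b-5p alone passed, as higher. In Negative vs Sublow the miR-16 pair was lower, 2 calls against 26.9% lower, 8.67% higher and 35.5% called, with 24.4% of all calls higher as deposited and 52.4% after rescaling, when 0 members passed. The sorted mean was above Non-sorted for the miR-16 pair, against 24.5% higher and 36.2% called, with 67.6% of all calls higher as deposited and 30.8% after rescaling.

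In Sublow vs Low, 0 of 5 members passed in limma, 2 had an unadjusted p under 0.05 (miR-15b-5p and miR-497-5p), and 34.7% of all entries passed, with 24.3% of all entries lower. Of those calls 29.9% were higher as deposited and 55.8% after rescaling. The median difference of the tested members was −0.26, beside −0.43 over all entries. Since miR-16 enters as a pair, this member median is the value of a miR-16 entry, here and in the comparisons that follow. In High vs Low these medians were −0.72 and −0.11, in High vs Sublow −0.46 and 0.07, and in High vs Negative 0.13 and 0.57. In Negative vs Low they were −0.84 and −0.90.

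Across the 14 libraries, miR-15a-5p and miR-16-1-5p from the Dleu2 locus had a Pearson r of 0.801 on log2(RPM + 1). miR-15b-5p and miR-16-2-5p from the Smc4 locus had 0.451, miR-195-5p and miR-497-5p 0.458, miR-15a-5p and miR-15b-5p 0.128, and miR-15b-5p and miR-497-5p −0.692. Across loci, miR-15a-5p and miR-16-2-5p had 0.798, and miR-15b-5p and miR-16-1-5p had 0.446. The miR-16 entries hold nearly the same reads, so the values with miR-16 do not separate the loci. All these values describe these libraries, which share groups and the same scaling.

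The annotated-start entry most like miR-16-1-5p among 270 tested ones was miR-222-3p (r = 0.956), which targets cell cycle inhibitors such as p27, followed by miR-421-3p (0.925) and miR-30a-5p (0.916). For miR-15b-5p they were miR-185-5p (0.914), miR-17-5p (0.888) of the miR-17-92 cluster and miR-21-5p (0.864). For miR-15a-5p they were miR-30a-5p (0.891), miR-23b-3p (0.860) and miR-1940 (0.857), and for miR-497-5p miR-574-5p (0.861), miR-127-3p (0.845) of the imprinted Dlk1-Dio3 region and miR-328-3p (0.810).

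Other miRNAs that act on the cell cycle were counted in a pair of lists. Of 12 proliferation-linked miRNAs (from the miR-17-92 and miR-106b clusters, with miR-221, miR-222 and miR-21), 8 were lower and 0 higher in High vs Low, with the same counts after rescaling, against 20.1% lower and 7.99% higher of all entries. Their median was −1.54, beside −0.11 over all entries. Examples are miR-17-5p (−2.03, adjusted p = 3.57e-04), miR-222-3p (−2.33, adjusted p = 7.88e-05) and miR-21-5p (−1.18, adjusted p = 1.23e-04), the last a widely expressed growth-linked miRNA. In High vs Sublow 9 were lower and 0 higher as deposited and after median-ratio rescaling, against 22.4% lower and 28.1% higher of all entries as deposited.

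Of 15 miRNAs known to restrain the cell cycle (let-7, miR-98, miR-34, miR-449 and miR-26), 13 were tested. In High vs Low 8 were lower and 1 higher as deposited, but 3 were lower and 4 higher after median-ratio rescaling, and 3 lower and 1 higher after quantile normalization. Of all entries 20.1% were lower and 7.99% higher as deposited. miR-34a-5p, a p53 target, was lower in High than in Low (−1.63, adjusted p = 0.00517), and let-7e-5p was higher (0.65, adjusted p = 0.0465). In Negative vs Low 12 were lower and 0 higher, against 49.5% lower and 16.5% higher of all entries, and rescaling left 7 lower and 1 higher. In High vs Negative the deposited values gave 10 higher and 1 lower, against 43.9% higher and 22.4% lower of all entries, and the rescaled values 6 higher and 3 lower.

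Libraries also differed in ways that the groups do not cover. 7 libraries listed miR-295-3p, a miRNA of pluripotent cells, and 7 did not, and each sorted population held both kinds. Every library of the lane with the Non-sorted libraries listed it, and none of the lane with Sublow replicates 1 and 3 did. By number, every replicate 2 listed it and no replicate 3 did. The split thus partly coincides with lane and replicate number. The summed immune markers (5 entries, of which miR-142-3p was at 0 throughout) reached 11.1 to 67.3 RPM in High, 6.51 to 103 RPM in Negative, 11.7 to 161 RPM in Sublow, 42.4 to 213 RPM in Low and 10.04 to 11.3 RPM in Non-sorted. They were 6.51 to 42.4 RPM in the libraries that list miR-295-3p and 11.1 to 213 RPM in the others. Negative replicate 3 and Sublow replicates 1 and 3, all without miR-295-3p, had the highest miR-16-1-5p of their groups. High and Low did not follow this: in High the highest value was in replicate 2, which lists miR-295-3p, and in Low the lowest was in replicate 3, which does not. The part of these markers in the miR-16 levels was not tested.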

How the data were processed

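Small RNA libraries were made with the TriLink CleanTag kit, per the labels' protocols. The authors deposited RPM values for 2030 miRNA entries in 14 libraries; all value columns were matched to samples. The submitters' processing notes name the build mm9; aligner and counter: not given in the sources used here. Low values gave whole reads for only 70.9 to 85.6% of entries (within 0.1 read), so no count test was run. Depth was estimated from those steps.

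Entries with at least 10 RPM in 3 libraries (588) were fitted as log2(RPM + 1) with limma 3.58.1 (R 4.3.3), 5 groups, empirical Bayes with trend and Benjamini-Hochberg adjustment; tests were two-sided. Intervals are 95% moderated ones without adjustment. The procedure was tested on simulated data. Within-library ratios were tested by exact permutation. Sequences and loci come from RefSeq tables of GRCm38.p6, by name; 455 of 534 annotated-start entries matched. Named are all members, their other arms and main shifted forms, entries with the same seed, the 3 entries most like each member, and list and marker entries. Members and lists were chosen with earlier results of these data known. Alternatives were another pseudocount, filter, scaling, block, lane, summing and leaving out each library. Figures used matplotlib 3.10.9.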

Additional observations from a re-analysis of the deposited data

How the results depend on the processing

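Several calls changed with the scaling. After median-ratio rescaling the number of members called was 0 in High vs Low, 1 in Sublow vs Low, 1 in Negative vs Low, 4 in High vs Negative, 0 in Negative vs Sublow and 0 for the sorted mean against Non-sorted, and quantile normalization gave 1 in Sublow vs Low. Rescaling turned the sign of miR-15a-5p in High vs Low (0.014), Sublow vs Low (0.134), Negative vs Low (0.12) and High vs Negative (−0.106). It also turned miR-16-1-5p in Sublow vs Low (0.131), Negative vs Low (0.0289) and High vs Negative (−0.425), miR-16-2-5p in the same comparisons (0.133, 0.0362 and −0.433), and miR-15b-5p for the sorted mean (−0.242). Quantile normalization turned miR-16-1-5p (0.121) and miR-16-2-5p (0.158) in Sublow vs Low and miR-16-2-5p in High vs Negative (−0.0312).

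The stricter filter gave 3 members in the test among sorted populations, 2 in High vs Sublow and 0 in High vs Negative, since fewer members were tested, and no filter gave 2 in High vs Sublow. A setting that summed hairpin copies by name gave 3 among sorted populations, 2 in High vs Sublow and 1 in High vs Negative. It gave 1 in Negative vs Sublow and 1 for the sorted mean. It also pooled miRNAs named by a number alone, so miR-497-5p had no entry of its own there. These counts thus do not show the effect of summing the miR-16 copies alone. A lane term gave 3 among sorted populations, 1 in Sublow vs Low, 2 in High vs Sublow, 1 in High vs Negative and 0 for the sorted mean, where it turned miR-15b-5p (−0.117) and miR-497-5p (2.01), and it turned miR-497-5p in Negative vs Sublow (−0.237). In Sublow vs Low a pseudocount of 10 gave 2, summing all forms 2, and a term for miR-295-3p, chosen after seeing the data, 1. In High vs Negative a pseudocount of 0.1 gave 1. miR-497-5p for the sorted mean was 0.148 with a pseudocount of 10 and 0.669 with the miR-295-3p term. The cause of these changes was not tested, and the lane term linked High to Negative and Sublow only through Low libraries.

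Replicate numbers recur across groups, and library names tie each number to a shared prefix of unstated meaning. Deviations correlated above 0.1 in 17 of 26 same-numbered pairs (−0.354 to 0.776, median 0.329) against 11 of 52 others (median −0.106), and 9 of 14 libraries correlated best with their own number. This could hint at pairing, but it does not hold in every pair, so the block was kept as an alternative. Replicate number partly coincides with the listing of the miRNA of pluripotent cells. Negative replicate 1 lists it and had −0.231, −0.354 and −0.211 with High, Sublow and Low replicate 1, which do not. With their replicate 2, which lists it, the values were 0.484, 0.706 and 0.607. Negative replicate 2 had 0.575, 0.755 and 0.677 there. The parts of number, listing and lane were not tested. Deviations within a group offset each other, so some negative values are built in. With the replicate block 1 member passed in Sublow vs Low, miR-497-5p for the sorted mean was 0.186, and the ratio tests had adjusted p of 0.0139, 0.0208, 0.227 and 0.111 for miR-15b to miR-15a, miR-16-2 to miR-15b, miR-16-1 to miR-15a and miR-16-2 to miR-16-1.

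Leaving out each library gave 4 to 5 members among sorted populations, 2 to 3 in High vs Low, 0 to 2 in Sublow vs Low, 3 to 4 in Negative vs Low, 2 to 4 in High vs Sublow, 2 to 3 in High vs Negative, 2 to 3 in Negative vs Sublow and 0 to 3 for the sorted mean. Signs turned in miR-15a-5p High vs Sublow (−0.221 to 0.122), miR-15b-5p Negative vs Low (−0.0912 to 0.236) and sorted mean (−0.3 to 0.566), and miR-497-5p Negative vs Sublow (−0.236 to 1.65) and sorted mean (−0.71 to 0.594). Adjusted p ranged from 0.00286 to 0.0184 for the miR-16-2 to miR-15b ratio, 0.0474 to 0.495 for miR-16-1 to miR-15a and 0.0355 to 0.21 for miR-16-2 to miR-16-1.

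Over all entries, counts of calls moved by over 1.5 times in these cases. Among sorted populations 425 were called, against 207 with the stricter filter of 100 RPM and 205 with all forms summed. For High vs Low these were 165, 100 and 100, for Negative vs Low 388, 198 and 184, for High vs Sublow 297, 170 and 163 (159 with the lane term) and for High vs Negative 390, 188 and 182 (239 with the lane term). Sublow vs Low had 204, against 115 summed and 130 with the lane term, Negative vs Sublow 209 against 113 summed, and the sorted mean 213, against 108 summed, 99 with the lane term, 120 rescaled and 90 without Non-sorted replicate 2. Quantile normalization put higher entries at 43.3% of calls in High vs Low, 51.6% in Sublow vs Low, 41.8% in Negative vs Low and 37.7% in Negative vs Sublow. miR-195-5p and the copy-specific forms rest on few reads.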
